A study of Mus musculus with 8 samples.

Results

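The mitochondrial ribosomal proteins are the protein components of the ribosome that works inside mitochondria. The genes described here are the protein-coding genes of GENCODE M21 whose symbol starts with Mrpl or Mrps followed by a digit, pseudogenes left out, and whose Ensembl identifier has a row in the deposited count table. These were 77 genes of the 35275 in the table, 48 with an Mrpl symbol and 29 with an Mrps symbol. One more gene, Mrpl33, fits the symbol rule but has no row under its GENCODE M21 identifier and was not analysed here.

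Liver RNA was sequenced, 1 library per mouse, from 4 Pcx L-/- animals and from 4 littermates that were Pcx f/f, here controls and WT in the labels. Pcx encodes pyruvate carboxylase, which makes oxaloacetate from pyruvate in mitochondria. The floxed line came from C57BL/6NTac-Pcx Tm1a mice crossed with Flpe deleters. Pcx L-/- mice carried Pcx alleles with a floxed exon 10 and Albumin-Cre, which acts in hepatocytes, so the other cells of the liver keep the gene, whereas controls carried the floxed alleles, labelled WT. All mice, given as C57BL/6 in the labels, were males aged 9 weeks that had been fasted for 24 h, and the comparison asks how the fasted liver transcriptome differs without hepatic Pcx.

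The mitochondrial ribosome translates the few messenger RNAs transcribed from mitochondrial DNA, all of which encode subunits of the oxidative phosphorylation complexes. It has a large and a small subunit, whose ribosomal RNA comes from mitochondrial DNA, while every one of its proteins is encoded in the nucleus, translated in the cytosol and imported. Some of these proteins descend from bacterial ribosomal proteins and others are found only in mitochondria, and the liver, which is rich in mitochondria, uses them to keep the respiratory chain supplied.

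Total reads on genes ranged from 12016242 to 20023108 per library, and control replicate 4 was the shallowest. Normalized counts are counts divided by the library size corrected by edgeR's TMM factors, which lay between 0.833 and 0.942 in controls and between 0.970 and 1.17 in Pcx L-/- liver. Pcx had between 556 and 758 normalized counts in Pcx L-/- libraries and at least 14370 in controls, which is in keeping with the labels. All 6 hepatocyte markers were detected. Their summed normalized count ran from 1617000 to 1989000 in controls and from 922900 to 1411000 in Pcx L-/- liver, without overlap. Alb made up most of this sum, with 1147000 to 1420000 in controls and 690200 to 1019000 in Pcx L-/- liver. By the test 2 of the 6, Apoa1 and Serpina1a, were lower. Alb did not pass (edgeR adjusted p = 0.0532), and Ttr, Tat and Cps1 overlapped between genotypes. The summed counts of markers of macrophages (3869 to 5722 in controls and 4557 to 6040 in Pcx L-/- liver), endothelial cells (4676 to 6400 and 4141 to 4970), stellate cells and fibroblasts (3878 to 5946 and 2615 to 5111), cholangiocytes (341 to 609 and 310 to 391), lymphocytes (127 to 279 and 169 to 241) and red blood cells (4747 to 16720 and 6244 to 69310) overlapped between genotypes. Among these, Cd68 of macrophages was higher, and Acta2 of stellate cells and Sox9 of cholangiocytes were lower. None of these markers was at 0 in all libraries. Their part in the results was not tested. In bulk liver, fewer cells of a type and less RNA per cell cannot be told apart.

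Of the 77 genes, 76 passed the filter on low counts and 29 of these, or 38.2%, were higher in Pcx L-/- liver, against 14.1% of the 13168 genes tested. A gene was called when its Benjamini-Hochberg adjusted p in the quasi-likelihood test of edgeR was below 0.05. None was lower, against 13.5% of all genes tested, and 1 of the 76 had an unadjusted p under 0.05 in that direction. DESeq2's Wald test called 30 higher, or 39.5%, and 1 lower. Of the 21737 genes in that fit, 8.99% were higher and 2031 genes were lower. The median log2 fold change over the 76 genes was 0.21, beside -0.0052 over all genes tested, and 59 of the 76 lay above 0. Changes were small, since the 29 genes that rose did so by 1.24-fold to 2.08-fold, with a median of 1.42-fold, and 1 of them reached 2-fold. In 33 genes, or 43.4%, each Pcx L-/- value exceeded each of the 4 control values, against 15.1% of all genes tested. In none were the Pcx L-/- values all below, against 12.5% of all genes tested. The 33 included all 29 that rose. Together the 77 genes took 0.146% to 0.203% of the reads of control libraries and 0.237% to 0.294% of those of Pcx L-/- libraries. These shares of raw reads do not carry the TMM correction. In normalized counts their sum ran from 29710 to 36550 in controls and from 39080 to 43990 in Pcx L-/- liver.

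**Figure D1:**
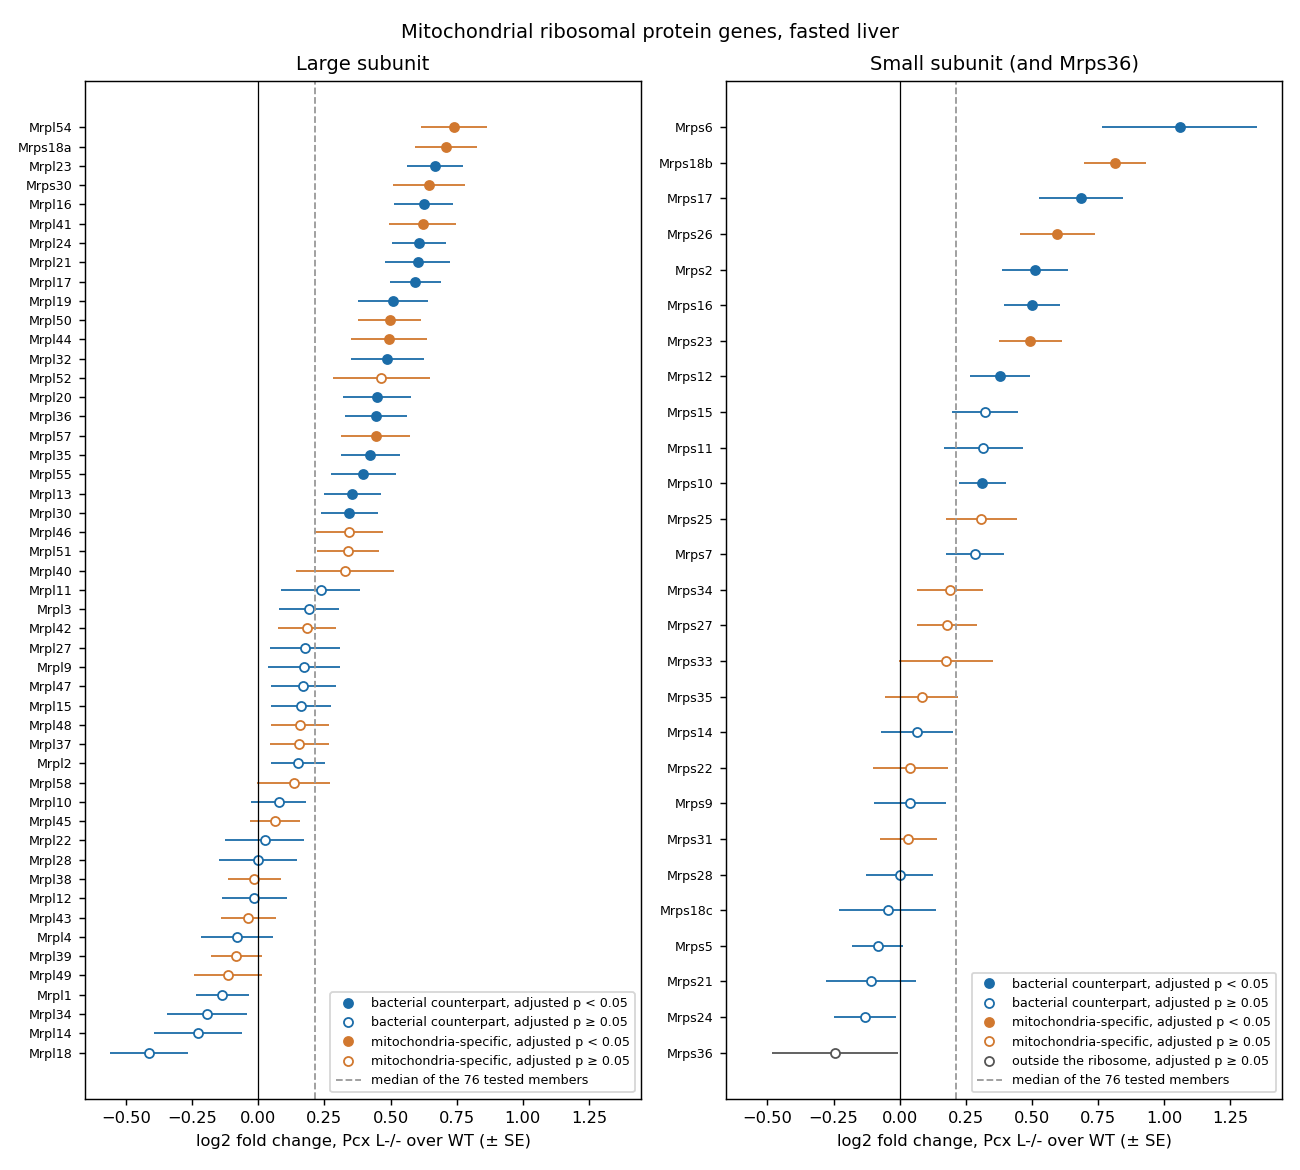
Each point is the log2 fold change of 1 gene, Pcx L-/- over WT, with its approximate standard error from 4 mice a genotype, for the large subunit (left) and the small subunit with Mrps36 (right). Filled points passed an adjusted p of 0.05 in edgeR's quasi-likelihood test, and all 29 of them lie to the right of 0, from Mrps10 at 0.31 to Mrps6 at 1.06.

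The DNA around the starts of these genes is shown first, because the factors best known for nuclear genes of mitochondrial proteins bind in such regions. Mrps6 had the largest change and its stretch is printed for that reason. It is the exon-free part of the RefSeq promoter window before the gene's start, at chr16:92058086-92058269 of GRCm38.p6, plus strand, and holds none of the 3 motifs searched below.
Mrps6: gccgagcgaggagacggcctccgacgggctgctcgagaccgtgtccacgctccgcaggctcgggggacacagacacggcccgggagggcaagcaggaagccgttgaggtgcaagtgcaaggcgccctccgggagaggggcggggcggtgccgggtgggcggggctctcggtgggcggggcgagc

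RefSeq windows of 300 bases, from 250 before to 50 after the annotated start, were given for 68 of the 77 genes. They were searched on both strands for exact matches to an ETS/GABP motif (CCGGAAGT), an NRF1 motif (GCATGCGC) and a YY1 motif (AAGATGGCG), and no matches of different motifs overlapped. The ETS/GABP letters occurred in 11 windows, or 16.2%, against 4.31% of the windows of 27025 genes. The NRF1 letters were found in 7, or 10.3%, against 3.05%, and the YY1 letters in 8, or 11.8%, against 1.64%. At least one of the 3 occurred in 25 windows, or 36.8%, against 8.47%. The 27025 genes were taken whether or not they were expressed in these livers. Shares among the genes tested were not computed, so these differences cannot be read as particular to the mitochondrial ribosomal protein genes. Among the 26 genes with a window that rose, 7 held a match, and among the 41 with a window that were tested and not called, 18 did. A match is a description of the letters and says nothing of binding.

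Of the 7 genes that rose with a match in the window, these are the matched letters, in capitals, with up to 10 bases on either side, as they read along the gene's strand in GRCm38.p6. One match per gene is shown, to let the sites be compared. Mrpl17 is at chr7:105811081-105811108 on the minus strand, Mrpl32 at chr13:14613042-14613069 on the minus strand, Mrps18b at chr17:35916646-35916673 on the minus strand, Mrps26 at chr2:130563732-130563759 on the plus strand, Mrpl35 at chr6:71823743-71823771 on the minus strand, Mrpl36 at chr13:73330968-73330996 on the plus strand and Mrps18a at chr17:46111005-46111033 on the plus strand. The first 3 hold NRF1 letters, Mrps26 the ETS/GABP letters and the others the YY1 letters, each on one strand or the other. Counted from the RefSeq start, the first matched base lies at -11, -22, -223, -15, 24, -31 and 12 in the order above. The matches of Mrpl35 and Mrps18a thus lie after the start. Mrpl32 has 3 further NRF1 matches and Mrps18b 1 that are not printed.
Mrpl17: ccgagttactGCGCATGCgtcctctgag
Mrpl32: cggacttaacGCATGCGCtcagcccgcg
Mrps18b: acggcccgacGCATGCGCactgggagca
Mrps26: ctccgcggccACTTCCGGgccgggcgca
Mrpl35: ggcaggctgcAAGATGGCGgcttccatct
Mrpl36: cgtgaccttaCGCCATCTTtcttcctggc
Mrps18a: ggtgcgttccAAGATGGCGgccctcaggg

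Mrps6 (ENSMUSG00000039680, chromosome 16 from 92058270 to 92112227, GRCm38), a small-subunit protein with a bacterial counterpart, had 93.4, 140, 123 and 184 normalized counts in Pcx L-/- replicates 1 to 4. Control replicates 1 to 4 had 80.1, 71.5, 74.2 and 27.2. The genotypes did not overlap, but the lowest Pcx L-/- mouse was close to the highest control, and control replicate 4 stood far below the other controls. Mean counts were 135 ± 37.7 and 63.2 ± 24.3 (SD, n = 4 each), and the log2 fold change, given here with its standard error (SE), was 1.06 (SE 0.29, edgeR adjusted p = 0.021). The call was lost when Pcx L-/- replicate 2 or 4 was left out (edgeR adjusted p = 0.0521 and 0.0742). Slc5a3, the gene of an inositol transporter, shares exonic bases with Mrps6 on the same strand, so that reads there could not be assigned to either with certainty. Slc5a3 had a log2 fold change of -0.41 (adjusted p = 0.293).

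Mrps18b, Mrps18a and Mrps18c are related to the same bacterial protein, S18, and had unequal values in these livers. Mrps18c takes the place of that protein in the mitochondrial small subunit, and the other two are counted here as mitochondria-specific. Mrps18b, now placed in the small subunit, had 344, 454.2, 401 and 452 normalized counts in Pcx L-/- mice and 249.4, 223, 241 and 224 in controls. The lowest Pcx L-/- value lay well above the highest control, and the log2 fold change was 0.81 (SE 0.12, edgeR adjusted p = 0.0012). Mrps18a, which despite its name sits in the large subunit, had 480, 559, 573 and 639 against 335, 353, 378 and 307. Its groups did not overlap either, with a log2 fold change of 0.71 (SE 0.12, edgeR adjusted p = 0.00195). Mrps18c had 379, 302, 324 and 341 against 367, 392, 412 and 209, and these values overlapped. Its log2 fold change was -0.05, with an approximate 95% interval from -0.49 to 0.40 and an adjusted p of 0.879. The differences between these 3 genes were not tested.

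Mrpl54, a mitochondria-specific protein of the large subunit, had 504, 506, 498 and 543 normalized counts in Pcx L-/- mice and 330, 302, 354 and 236 in controls. All Pcx L-/- values lay within a narrow range above the controls, and the log2 fold change was 0.74 (SE 0.13, edgeR adjusted p = 0.00238). Mrpl23, the large-subunit counterpart of a bacterial protein at the mouth of the peptide exit tunnel, had 401, 392, 401 and 447 against 256, 281, 268 and 226. There was no overlap, and the log2 fold change was 0.67 (SE 0.11, edgeR adjusted p = 0.00173). Mrps17, a small-subunit protein that contacts ribosomal RNA in its bacterial form, had 773, 809, 784 and 932 against 603, 579, 517 and 343. The controls spread more widely than the Pcx L-/- mice, with replicate 4 lowest, and the log2 fold change was 0.69 (SE 0.16, edgeR adjusted p = 0.00999). The plot of normalized counts of the genes with the largest changes shows these values side by side.

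**Figure D2:**
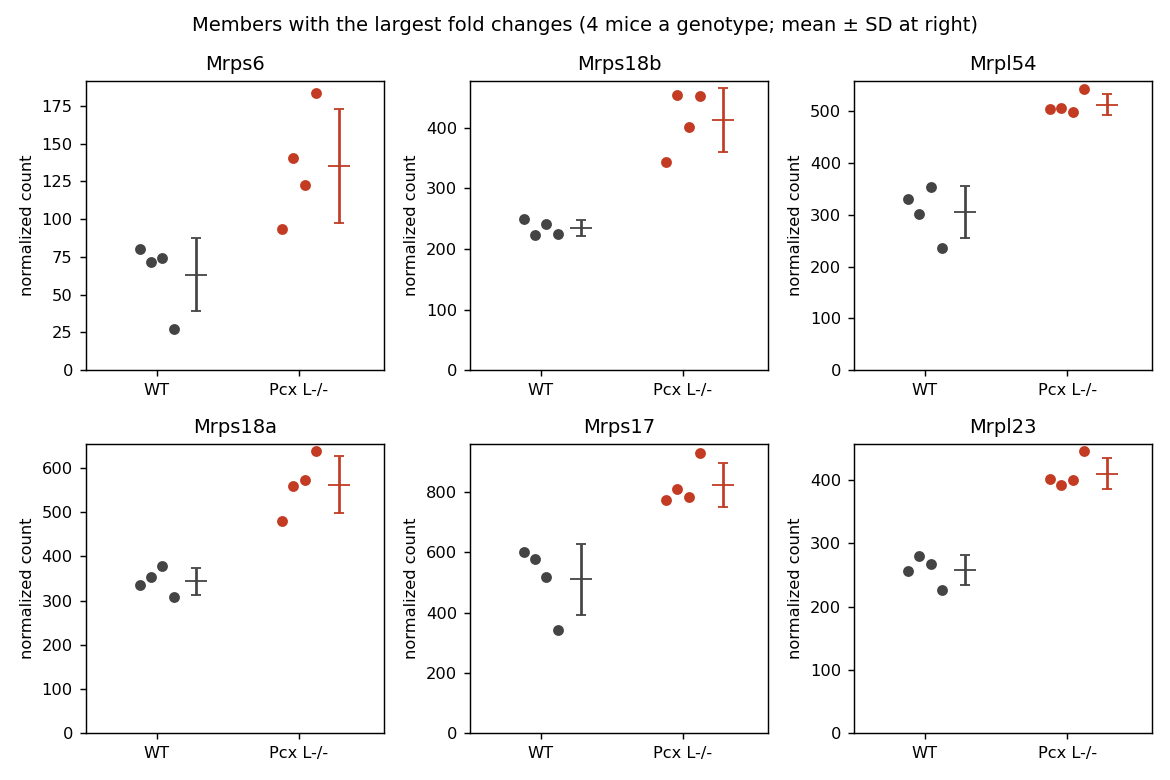
Normalized counts (y axis, from 0) of the 6 genes with the largest fold changes, with 1 point per mouse and the mean ± SD of 4 mice to the right of each genotype. In each panel every Pcx L-/- point lies above every WT point, and the gap is narrowest for Mrps6, where WT reached 80.1 and the lowest Pcx L-/- mouse 93.4.

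The other genes that rose are listed by their place in the ribosome. In the large subunit with a bacterial counterpart, 13 of 29 rose, and besides Mrpl23 these were Mrpl16 with a log2 fold change of 0.62, Mrpl24 with 0.61, Mrpl21 with 0.60, Mrpl17 with 0.59, Mrpl19 with 0.51, Mrpl32 with 0.49, Mrpl20 with 0.45, Mrpl36 with 0.44, Mrpl35 with 0.42, Mrpl55 with 0.40, Mrpl13 with 0.35 and Mrpl30 with 0.34. In the mitochondria-specific part of the large subunit, 7 of 20 rose, namely Mrpl54, Mrps18a, Mrps30 with 0.65, Mrpl41 with 0.62, Mrpl50 with 0.50, Mrpl44 with 0.49 and Mrpl57 with 0.44. In the small subunit with a bacterial counterpart, 6 of 16 rose, and besides Mrps6 and Mrps17 these were Mrps2 with 0.51, Mrps16 with 0.50, Mrps12 with 0.38 and Mrps10 with 0.31. In its mitochondria-specific part, 3 of 10 rose, which were Mrps18b, Mrps26 with 0.60 and Mrps23 with 0.49. Median log2 fold changes in these classes, in the same order, were 0.19, 0.33, 0.30 and 0.19.

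By subunit, 20 of 49 tested genes of the large subunit and 9 of 26 of the small subunit rose, with medians of 0.24 in both. Of the 45 genes with a bacterial counterpart 19 rose, and of the 30 mitochondria-specific ones 10 did, with medians of 0.24 and 0.25. Neither split was tested. Because Mrps30 and Mrps18a are counted here in the large subunit, where structures place them, the split by symbol differs, with 18 of 47 Mrpl and 11 of 29 Mrps genes higher.

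Several genes with a role of their own did not change by the test. Mrpl12, the stalk protein that contacts translation factors, had a log2 fold change of -0.02 with an approximate 95% interval from -0.32 to 0.28 (adjusted p = 0.939). Mrpl58, a peptidyl-tRNA hydrolase built into the large subunit that rescues stalled ribosomes, had 0.13 with an interval from -0.21 to 0.47 (adjusted p = 0.515). Mrpl11, the large-subunit protein of the region that stimulates translational GTPases, had 0.24 with an interval from -0.13 to 0.60 (adjusted p = 0.272). Mrps27, a pentatricopeptide repeat protein of the small subunit, had 0.18 with an interval from -0.10 to 0.46 (adjusted p = 0.276). Their intervals all include the median of the 76 genes. By contrast Mrps12, which lies at the decoding center of the small subunit, rose from 484 ± 60.5 to 631 ± 40.9 normalized counts (SD, n = 4 each, adjusted p = 0.0289).

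Mrps36 carries a ribosomal symbol but is now known as a subunit of the 2-oxoglutarate dehydrogenase complex of the tricarboxylic acid cycle. It had 163, 107, 90.2 and 81.4 normalized counts in Pcx L-/- replicates 1 to 4 and 128, 159, 140 and 91.6 in controls. These values overlapped widely, and the log2 fold change of -0.24 had an approximate 95% interval from -0.82 to 0.34 (adjusted p = 0.482). Mrps30, whose symbol also misplaces it, rose from 162 ± 11.2 to 255 ± 39.2 normalized counts (SD, n = 4 each, adjusted p = 0.00618).

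The lowest log2 fold change belonged to Mrpl18, a large-subunit protein related to the bacterial partner of 5S ribosomal RNA. It had 449, 309, 318 and 356 normalized counts in Pcx L-/- mice and 522, 500, 502 and 378.5 in controls. The groups overlapped through Pcx L-/- replicate 1 and control replicate 4, and the log2 fold change was -0.41 (SE 0.15, edgeR adjusted p = 0.0562). Mrpl18 lay just outside the threshold, as did Mrpl51 at an adjusted p of 0.0529 and Mrpl46 at 0.0738, both with log2 fold changes of 0.34. Just inside it were Mrpl13 at 0.031, Mrpl55 at 0.0349 and Mrpl30 at 0.0357.

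**Figure D3:**
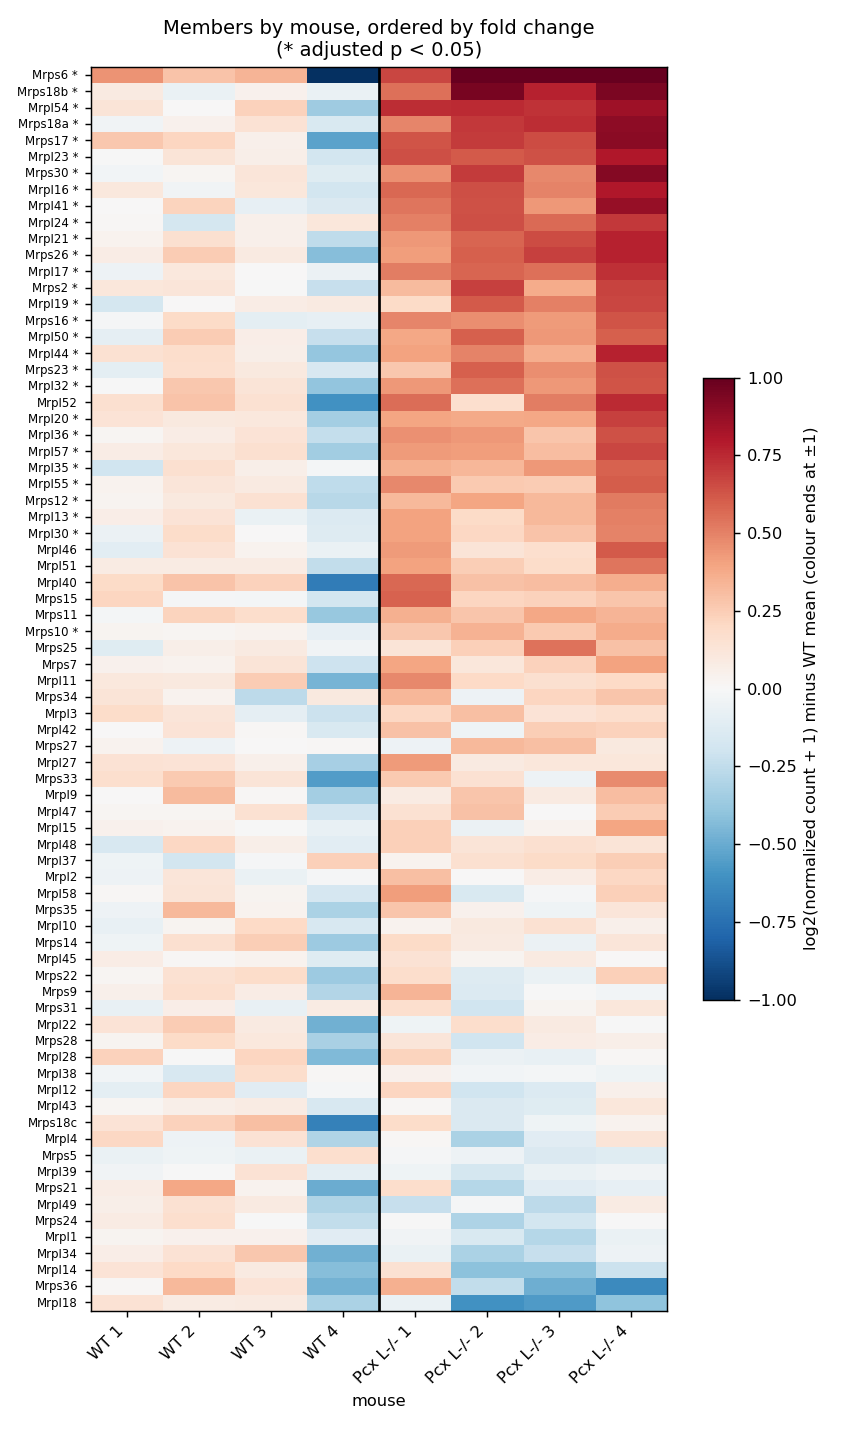
Colour shows log2(normalized count + 1) of each of the 76 tested genes (rows, ordered by fold change, with an asterisk where the adjusted p was under 0.05) in each mouse (columns), relative to the mean of the 4 WT mice. Red fills the upper part of all 4 Pcx L-/- columns, and the WT 4 column is blue for most genes, being the lowest WT mouse in 60 of the 76.

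Taken mouse by mouse, the median over the 76 genes of the log2(normalized count + 1), taken after subtracting each gene's mean in controls, was 0.32, 0.19, 0.20 and 0.30 in Pcx L-/- replicates 1 to 4. In control replicates 1 to 4 it was 0.03, 0.13, 0.08 and -0.22. The lowest Pcx L-/- mouse lay above the highest control, replicate 2, by a small margin. Over all genes tested the same median lay between -0.0018 and 0.03 in every mouse. Control replicate 4, the shallowest library with the lowest TMM factor, was the lowest control for 60 of the 76 genes, and Pcx L-/- replicate 4 was the highest of its genotype for 41. Low values in control replicate 4 were not particular to these genes. Its median was -0.38 over the cytosolic ribosomal proteins and -0.36 over the nuclear-coded oxidative phosphorylation subunits, lists described below. Without control replicate 4 there were 26 genes higher and 2 lower, which were Mrpl18 and Mrpl34, and the median log2 fold change was 0.20. Without Pcx L-/- replicate 4 the number of higher genes was 16, with a median of 0.22. The fit without control replicate 4 had 34.2% of the 76 higher and 14.2% of all genes tested, and 1755 of its 13518 genes were lower. For the fit without Pcx L-/- replicate 4 these shares were 21.1% and 8.63%.

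Scaling set how many of these genes passed. With library size as the only scaling 51 of the 76, or 67.1%, rose and none fell, but 29.7% of all genes tested rose as well and their median was 0.28, and relative to it the median of the 76 was 0.21, close to the difference of 0.22 with TMM. The 29 genes that rose with TMM also rose under each of the other scalings. Of the 47 genes not called, 17 lay below 0 with TMM, and with library size only Mrpl18 alone stayed below 0. Directions given above for genes that were not called are therefore those of the TMM scaling. In all, 16 of the 29 genes kept their call in each of 18 alternative analyses, among them Mrps18b, Mrpl54, Mrps18a, Mrps17 and Mrpl23.

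Levels are compared between genes in FPKM, the deposited reads per length and per library total, which do not carry the TMM correction. Over the 8 mice the tested genes ranged from 1.58 to 109 FPKM, a 69-fold range, with a median of 18.4 and with 9.24 and 28.8 as quartiles. Mrpl52, a large-subunit protein, was highest with 81.6 ± 23.2 FPKM in controls and 136 ± 23 in Pcx L-/- liver (SD, n = 4 each). Mrpl30 followed with 43.4 ± 6.1 and 66.9 ± 6.57, and Mrpl20 with 40.1 ± 7.63 and 66.6 ± 9.87. Mrpl30 and Mrpl20 did not differ beyond their spread in either genotype, whereas both lay below Mrpl52. At the low end stood Mrps25 with 1.25 ± 0.118 and 1.9 ± 0.352, and Mrpl19 with 2.01 ± 0.141 and 3.51 ± 0.729.

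Mrpl53 had no read in any library and was not tested. Its exons share most of their bases with Gm42688 on the same strand, 695 of 790, and Gm42688 has a row of its own. Mrps25 and Mrpl19, the lowest of the tested genes, overlap on the opposite strand with exons of Nr2c2 over 4590 bases and of Gcfc2 over 1962 bases. Exons of 28 of the 77 genes overlap those of an opposite-strand gene, 9 of the 29 that rose among them, and the sources used here do not give whether counting used the strand. Normalized counts of the highest gene, Mrpl52, were 892, 680, 865 and 1019 in Pcx L-/- mice and 677, 741, 675 and 399 in controls. They overlapped, and its log2 fold change of 0.47 did not pass the test (SE 0.18, edgeR adjusted p = 0.0835).

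**Figure D4:**
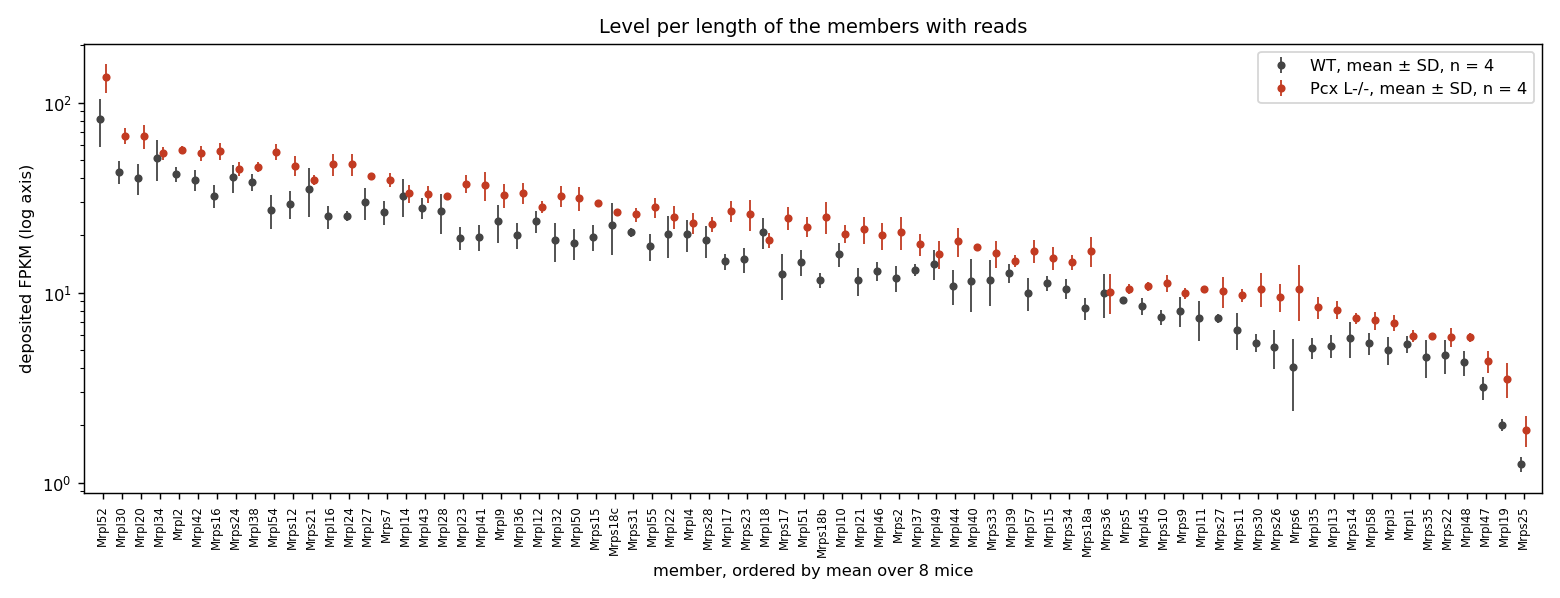
Deposited FPKM (log axis) of the 76 genes with reads, as the mean ± SD of 4 mice for WT and for Pcx L-/-, ordered by the mean over 8 mice. Levels run from 109 FPKM for Mrpl52 to 1.58 for Mrps25, and most Pcx L-/- means lie above the WT means on this scale, which has no correction for library composition.

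Many of these genes stand head to head with a neighbor, so that both start within 1000 bases of each other on opposite strands. This held for 33 of the 77 genes, or 42.9%, against 15.8% of the 12259 protein-coding genes tested. The arrangement was found for 13 of the 29 genes that rose and for 20 of the 47 that were tested and not called. Beside the genes that rose, 11 neighbors were tested, of which 1 was higher and 1 was lower, or 9.09% each. The higher one was Mtbp, whose log2 fold change was 0.89 (adjusted p = 0.0242), beside Mrpl13, but exons of this pair overlap over 330 bases on opposite strands. The lower one was Wdfy1, with -0.39 (adjusted p = 0.0362), beside Mrpl44. Beside the genes not called, 18 neighbors were tested, of which 3 were higher (16.7%) and 1 was lower (5.56%). Of all genes tested, 14.1% were higher and 13.5% lower.

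Other neighbors did not pass the test. Ppp1r10, a phosphatase regulator, starts 45 bases from Mrps18b and had a log2 fold change of -0.31 (adjusted p = 0.555). Apba3 starts 26 bases from Mrpl54 and had 0.10 (adjusted p = 0.554). Ndufs6, a subunit of respiratory complex I, starts 29 bases from Mrpl36 and had -0.17 (adjusted p = 0.38). Sars2, the mitochondrial seryl-tRNA synthetase, starts 172 bases from Mrps12 and had -0.26 (adjusted p = 0.127). Mrpl46 and Mrps11 face each other at 412 bases and had similar values, 0.34 and 0.32, neither of which passed (adjusted p = 0.0738 and 0.141).

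Of 5 mitoribosomal proteins without an Mrp symbol, all tested, 3 rose and none fell, with a median log2 fold change of 0.40 and 1 value below 0. Dap3, a GTP-binding protein of the small subunit, had 787, 709, 813 and 776 normalized counts in Pcx L-/- mice and 596, 574, 609 and 558 in controls, without overlap (log2 fold change 0.40, SE 0.09, edgeR adjusted p = 0.00958). Aurkaip1 and Chchd1, both of the small subunit, had 0.43 (adjusted p = 0.0153) and 0.44 (adjusted p = 0.0257). Gadd45gip1, with 0.23, and Ptcd3, with -0.08, did not pass (adjusted p = 0.182 and 0.57).

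Assembly factors and rRNA-modifying enzymes of the mitochondrial ribosome also moved, with 12 of 27 higher and 1 lower, a median of 0.32, and a wider range. Ddx28, an RNA helicase needed to build the large subunit, had 391, 1291, 742 and 996 normalized counts in Pcx L-/- replicates 1 to 4 and 190, 220, 252 and 200 in controls. The genotypes did not overlap, and Pcx L-/- mice differed among themselves more than the controls did (log2 fold change 1.99, SE 0.30, edgeR adjusted p = 0.00132). Noa1, a GTPase of small-subunit assembly, had 221, 431, 311 and 470 against 187, 151, 171 and 178 (log2 fold change 1.06, adjusted p = 0.005). Tfb1m, which dimethylates the small-subunit rRNA, had a log2 fold change of 0.78 (adjusted p = 0.00187), and Mrm3, which methylates the large-subunit rRNA, had 0.77 (adjusted p = 0.00542). The lower gene was Nsun4, an rRNA methyltransferase, with -0.49 (adjusted p = 0.0152). With library size only its call was lost (adjusted p = 0.205). Nsun4 lies outside the rule for named genes and was chosen after its value was seen.

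Of 16 mitochondrial translation factors, 1 was higher and 1 lower, with a median of -0.02. With library size only 5 were higher and none lower, and the median was 0.26. Over all genes tested that scaling gave 29.7% higher and a median of 0.28. Relative to the all-gene median, this list lay at -0.02 with either scaling. Mrrf, the ribosome recycling factor, rose with a log2 fold change of 0.51 (adjusted p = 0.00702), and Lrpprc, which stabilizes mitochondrial messenger RNA, fell by 0.41 on the log2 scale (adjusted p = 0.048), a call that was lost with upper-quartile factors (adjusted p = 0.0533) and with library size only (0.436). Of 10 genes of mitochondrial transcription and DNA maintenance 2 were higher, Twnk, the mitochondrial DNA helicase, with 0.82 (adjusted p = 0.00367), and Tefm, the transcription elongation factor, with 0.56 (adjusted p = 0.011). Twnk starts 779 bases from Mrpl43, which had -0.04 (adjusted p = 0.82), but exons of this pair overlap over 507 bases on opposite strands. The median of this list was 0.24.

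Of 10 transcription regulators known for nuclear mitochondrial genes, 1 was higher and 1 lower, whereas with library size only 3 were higher and none lower. Relative to the median of all genes tested, the median of this list was -0.12 with TMM and -0.11 with library size only. Myc had 246, 585, 381 and 549 normalized counts in Pcx L-/- replicates 1 to 4 and 82.8, 59.6, 58 and 62.8 in controls, far apart (log2 fold change 2.73, SE 0.27, edgeR adjusted p = 0.00021). Gabpb2, a subunit of the GABP factor, fell by 0.44 on the log2 scale (adjusted p = 0.0101), a call that was lost with library size only (adjusted p = 0.255). Nrf1, Yy1 and Gabpa, which bind the motifs searched above, had adjusted p of 0.595, 0.733 and 0.156, Ppargc1a, a coactivator induced by fasting, had a log2 fold change of -0.49 (adjusted p = 0.168), and Pprc1, a related coactivator, had 0.50 (adjusted p = 0.183).

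The ribosomal proteins of the cytosol make the ribosome that translates nuclear-coded messages. Of 76 tested, 69 were higher and none lower, with a median log2 fold change of 0.78, and every one lay above 0 under each of the 4 scalings. Rpl12 had 1.46 (adjusted p = 0.000577), Rps26 1.11 (adjusted p = 0.00631), Rpl3 1.09 (adjusted p = 0.000598) and Rplp1 1.07 (adjusted p = 0.00118). Many of these genes have processed pseudogenes, so that reads may have been split among near-identical copies.

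Nuclear-coded subunits of the oxidative phosphorylation complexes, into which the products of the mitochondrial ribosome are built, showed few calls. Of 78 tested, 2 were higher and 4 lower, with a median of -0.14, and 60 lay below 0. This sign depended on scaling, since with library size only 19 lay below 0, the median was 0.12, and 3 were higher and none lower. Over all genes tested that scaling gave a median of 0.28 and 29.7% higher. Relative to the median of all genes tested, the list's median was -0.13 with TMM and -0.16 with library size only. The 4 lower genes with TMM, chosen after their values were seen, were Sdhd, Ndufb8, Atp5a1 and Uqcrfs1, with log2 fold changes from -0.55 to -0.50. Atp5s rose with a log2 fold change of 0.78 (adjusted p = 0.00974). Cox6a2, a muscle form of a complex IV subunit, had 17, 22.9, 36.6 and 29.8 normalized counts in Pcx L-/- mice, and among controls it was above 0 in replicate 3 alone, at 1.08 (adjusted p = 0.00042). Ndufb2 had -0.70 (adjusted p = 0.084) and Cox7b -0.55 (adjusted p = 0.0923).

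**Figure D5:**
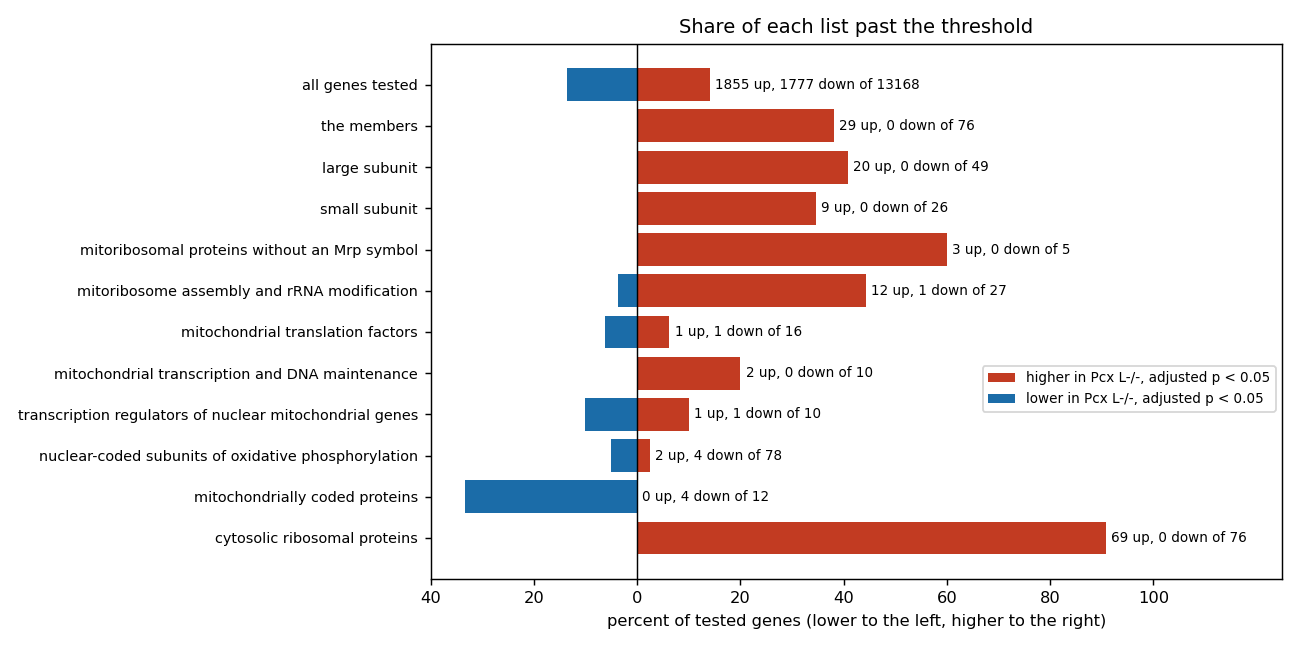
Bars give the percent of tested genes in each list with an adjusted p under 0.05 in edgeR's quasi-likelihood test, higher in Pcx L-/- to the right and lower to the left, with the counts printed beside them. The members, named so in the plot, are the 76 tested mitochondrial ribosomal protein genes, of which 38.2% were higher, between the 14.1% of all genes tested and the 90.8% of the cytosolic ribosomal proteins.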

How the data were processed

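Read counts per gene for 4 control and 4 Pcx L-/- livers, and FPKM values, were deposited by the authors. According to the submitters' processing notes, STAR 2.5, HTSeq 0.6.1, DESeq2 and the mm10 build were used, whereas neither the annotation release nor the strand setting is among the details found, being not given in the sources used here. Deposited read counts are raw, and 100% of 142384 deposited FPKM values above 0 equalled the count divided by gene length and library total within a relative tolerance of 1e-06. The FPKM by the authors therefore carry library size scaling only. Symbols came from GENCODE M21 (GRCm38, the same assembly as mm10), which matched 34490 of 35275 identifiers.

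Counts were tested with edgeR 4.0.16 in R 4.3.3, using TMM factors, filterByExpr (minimum count 10, minimum total 15), a model of genotype alone, the quasi-likelihood F test, and adjustment by Benjamini-Hochberg over 13168 genes. Standard errors were taken from the F statistic, and approximate intervals use the 6 residual degrees of freedom. Variation between mice came to a biological coefficient of 0.181. Each library is 1 mouse. The steps were tested on simulated data. There edgeR recovered 19.7% of the genes changed 1.5-fold, 63.1% at 2-fold and 96.8% at 4-fold, with 6 false calls. Most changes of 1.5-fold were thus missed. As alternatives, scalings and filters were changed, and DESeq2 1.42.0, apeglm 1.24.0, limma 3.58.1 with trend on log2(FPKM + 1) and log2(FPKM + 0.1), a term for the mouse number series, a replicate block, and fits leaving out 1 mouse each were run.

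The genes and lists were chosen with earlier results of these data known. Named are all called genes, with every mouse for the 6 largest changes, the 3 highest and 3 lowest in FPKM, 10 with a role of their own, and the 3 nearest to the threshold on either side. From the other lists come every called gene of the mitoribosomal proteins without an Mrp symbol and of the translation factors, and up to 4 genes of largest change elsewhere. Further genes were chosen after their values were seen, among them neighbors, overlapping genes, and Nrf1, Yy1 and Gabpa. The list of mitochondrially coded proteins was added after the other values were seen. The mitochondrial rRNA genes and protein sequences were not analysed here. Promoter windows are RefSeq's for GRCm38.p6, matched by symbol for 68 of 77 genes, with up to 10 flanking bases shown at a match.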

Additional observations from a re-analysis of the deposited data

Results flagged for a closer look

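For each of the 76 genes and each genotype, the highest and lowest of the 4 normalized counts were compared with the others, and a value was picked out when its gap to the next, as a share of the whole range, exceeded Dixon's 95% critical value. Of 152 such groups 13 were picked out, or 8.55%, where chance alone picks about 5% of groups. In 7 of them control replicate 4 was lowest, at 27.2 for Mrps6, 149 for Mrpl40, 329 for Mrpl1, 378.5 for Mrpl18, 473 for Mrpl20, 536 for Mrps10 and 619 for Mrpl51. It was the highest control at 862 for Mrps5. Pcx L-/- replicate 1 was high for 3 genes that were not called, at 541 for Mrpl11, 563.3 for Mrpl27 and 568 for Mrps15. Pcx L-/- replicate 4 was high for Mrpl20 at 962 and for Mrpl23 at 447, both of which were called. The library of control replicate 4 was the shallowest and had the lowest TMM factor, and the part of these in its low values was not tested.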

How the results depend on the processing

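The direction of the 76 genes as a group and of the 29 that rose held under every alternative run. The 40 named and tested genes gave 760 log2 fold changes under alternatives, of which 677 stayed on their side of the threshold, 52 lost the threshold, 31 gained it, and none of the called values changed sign. Higher genes were 51 with library size only, with log2(FPKM + 1) and with log2(FPKM + 0.1), and the medians were then 0.49, 0.46 and 0.51. By construction these scalings omit the TMM correction, and they moved the median of all genes tested to 0.28, 0.18 and 0.27 and the higher share of all called genes from 51.1% to 81.8%, 82.3% and 82.1%. With DESeq2's size factors in edgeR, and in DESeq2 itself, 1 gene, Mrpl18, was lower. Over all genes, 1821 of 13168 and 2031 of 21737 were lower in these fits, in that order. With each mouse left out in turn, higher genes numbered between 16 and 29, lower genes between 0 and 2, all genes called between 2109 and 4602, and the median lay between 0.20 and 0.27. The fewest came without Pcx L-/- replicate 4 (16 genes, and 2109 over all), and 2295 genes in all were called without Pcx L-/- replicate 2. The cause was not tested. Deviations of same-numbered mice correlated weakly (from -0.131 to 0.101), so pairing by number was not seen. A single correlation per pair cannot exclude it. With a replicate block 20 genes were higher and none lower, or 26.3% higher against 11.2% of all genes tested. These 20 were all among the 29, and the median was 0.23. Only replicate 1 correlated best with its own number. The total reads and the 4 mice a genotype limit what can be said of small changes, and a gene without a call is not shown to be unchanged.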

Other observations

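The 13 proteins that the mitochondrial ribosome translates are coded by mitochondrial DNA, and their transcripts were measured in the same libraries. This list was added after the other values were seen, so it is given as a description. Of 12 transcripts tested none was higher and 4, or 33.3%, were lower, against 14.1% and 13.5% of all genes tested. All 12 had log2 fold changes below 0, and the median was -0.46, beside 0.21 for the mitochondrial ribosomal protein genes. The 4 lower transcripts encode subunits of complex I (mt-Nd4l with -1.19, mt-Nd2 with -0.68 and mt-Nd5 with -0.58) and of ATP synthase (mt-Atp6 with -0.65). For mt-Nd4l, controls had 52.8, 56.35, 47.29 and 140.9 normalized counts, and Pcx L-/- mice 37.74, 25.19, 36.55 and 26.79. Control replicate 4 thus stood far above the other controls, and this transcript had only 27 to 83 reads per library. The transcript mt-Atp8 was too low to be tested. With library size as the only scaling 2 were lower, 11 of 12 lay below 0 and the median was -0.17. Relative to the median of all genes tested, it was -0.45 there and -0.46 with TMM. Summed normalized counts of the list ran from 916300 to 1051000 in controls and from 633800 to 877500 in Pcx L-/- liver, without overlap. Nuclear copies of mitochondrial DNA can take part of such reads, so these counts are uncertain.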
